A study of Mus musculus with 65 samples.

Results

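Intracisternal A-particle (IAP) elements and RLTR10 elements are mouse endogenous retroviruses of the ERVK class, and the copies described here were taken by name: every row of the deposited repeat count table annotated as a long terminal repeat (LTR) of the ERVK class whose name begins with IAP or RLTR10. The rule used no measured value. It found 39615 copies in 35 subfamilies, 28733 in 25 IAP subfamilies and 10882 in 10 RLTR10 subfamilies, among 3649575 transposable element (TE) copies in 1057 subfamilies.

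A complete IAP or RLTR10 provirus has an internal stretch with retroviral coding sequence, written here with -int or _I, between a pair of LTRs that hold the promoter and the polyadenylation signal; many insertions have recombined to a lone LTR. IAP elements are among the youngest mobile elements of the mouse genome, and their silencing in embryonic cells rests largely on TRIM28 (also called KAP1), the histone methyltransferase SETDB1 and DNA methylation. SUV39H1 is another methyltransferase that lays trimethylation on lysine 9 of histone H3, a mark of constitutive heterochromatin. Lipopolysaccharide (LPS) is sensed by TLR4, which signals through the adaptor MyD88 to NF-kB and early cytokines and through the adaptor TRIF to IRF3 and type I interferon, and type I interferon acts through the receptor IFNAR.

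RNA was selected for polyadenylated transcripts and sequenced in 65 libraries of 19 groups, in 3 experiments. The first used unstimulated bone-marrow-derived dendritic cells (BMDC) on the C57BL/6 background that were Suv39h1KO, wild type (WT), Suv39h1KO_IfnarKO or IfnarKO, with 3 libraries each. The second used C57BL/6 BMDC given 100 ng/mL LPS for 0, 2 and 4 h: MyD88KO (3 libraries a time), TrifKO (3 libraries a time) and WT (6, 5 and 6 libraries). The last used RAW264.7, a macrophage line of BALB/c origin, with the guides gRNA_1, gRNA_2 or gRNA_Ctrl, each at 2 h of LPS and at 0 h with 3 libraries; its LPS dose and the targets of its guides are not given in the sources used here. The sample titles call these cells DC, whereas their dendritic markers were low: 3 of 8 reached 1 CPM, against 7 of 8 macrophage markers and 0 of 7 granulocyte markers, while all 8 dendritic markers reached it in the BMDC. The labels number cohorts but do not tie libraries to animals, so p-values measure the spread between these libraries.

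Gene counts summed to between 36879570 and 95292653 a library (median 54709838), and IAP and RLTR10 rows together to between 20091 and 51419 counts. Suv39h1 RNA averaged 0.216 ± 0.126 CPM in Suv39h1KO and 50.5 ± 9.2 CPM in WT, and 0.225 ± 0.127 CPM in Suv39h1KO_IfnarKO and 47.2 ± 15.2 CPM in IfnarKO (SD, n = 3 each). Ifnar1 RNA was 132 ± 12.6 CPM in Suv39h1KO_IfnarKO and 146 ± 12.7 CPM in IfnarKO, against 199 ± 16.1 CPM in Suv39h1KO and 180 ± 11.7 CPM in WT, and Myd88 RNA at 0 h was 47.7 ± 1.28 CPM in MyD88KO (n = 3) and 75.1 ± 3.25 CPM in WT (n = 6), so both were lower but present. The labels do not say which part of a gene was removed. Ticam1, the gene of TRIF, was 31.0, 29.8 and 31.7 CPM at 0 h in the libraries labelled TrifKO (replicates 1, 2 and 3), 45.6, 50.3 and 2.94 CPM after 2 h and 42.3, 37.3 and 2.46 CPM after 4 h. Among the libraries labelled TrifKO only replicate 3 at 2 h and at 4 h was low, so results on that label are also given without those libraries. The LPS experiment also mixed libraries with and without Xist in every group (2 of 3 MyD88KO libraries at each time had it, 2 of 3 TrifKO libraries at 0 h but 1 of 3 at 2 h and at 4 h, and 4 of 6, 3 of 5 and 4 of 6 WT libraries), and the part of that mixture in the results was not tested.

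Levels are CPM, counts relative to the library's gene total after edgeR's TMM scaling of the gene table. A feature was called at a Benjamini-Hochberg adjusted p under 0.05 in edgeR's quasi-likelihood test, adjusted over all TE subfamilies or all TE copies tested, and effects are log2 fold changes ± SE. In bulk RNA, fewer cells that transcribe a copy and less RNA per cell cannot be told apart, and RNA that starts in an element cannot be told apart from RNA of a gene that runs through it.

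Few copies carried most of the RNA. Of the 39615 copies, 17724 (44.7%) had at least 1 count in the 65 libraries, 12572 of IAP and 5152 of RLTR10; among all TE copies the share was 37.9%. The copies of both families held 1.16% of TE counts (0.842% to 1.64% in single libraries). Their counts were concentrated: 87 copies held 50% of them, 1974 copies held 90%, and a copy with any count had a median of 5 over all libraries. IAP rows gave 84.8% of the counts and internal rows 75.7%. The running numbers of the copies are taken to follow genome order, which was not tested; consecutive numbers are called a run, and 91.8% of the 17625 internal copies stood in a run that also held an LTR copy. Copies of a run may share a locus and are not treated as independent, and the table used here gives their numbers without coordinates.

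Among subfamilies, IAPEz-int, the internal part of the youngest IAP elements, held 39.7% of the counts, spread over 7319 copies of which the highest, copy 838019, had 3.62%. IAPEY4_I-int, another internal part, was second with 16.9% over 521 copies, and copy 3620453 alone held 40.5% of that. RLTR10-int, the internal part of RLTR10 elements, had 6.69%, IAP1-MM_I-int 4.52%, the LTR IAPLTR1_Mm 4.18% and IAPLTR3-int 3.46%, with copy 3982068 holding 50.3% of IAPLTR3-int. The remaining 29 subfamilies ranged from IAPEY3-int (2.64%) down to IAPLTR4_I (0.0246%). The summed IAP level ranged from 251.7 to 770.4 CPM of gene totals over the 65 libraries and the summed RLTR10 level from 46.8 to 174 CPM.

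Without Suv39h1 the RLTR10D2 LTR and the internal part IAP-d-int were higher on both backgrounds. In the fit without a cohort block the other subfamilies, the abundant IAPEz-int included, did not pass the test in both. With the cohort as a block IAP1-MM_LTR and IAP1-MM_I-int also passed as higher on both backgrounds, and IAPLTR3-int as lower. Without that block, 2 of 35 subfamilies tested were higher and 0 lower in Suv39h1KO than in WT BMDC. Of all subfamilies 0.318% were called higher and 0.212% lower. On the IfnarKO background 3 were higher and 0 lower (0.424% and 0.212% of all subfamilies). DESeq2 called 3 higher and 4 higher in these comparisons.

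RLTR10D2 was 1.04, 1.13 and 1.52 CPM in Suv39h1KO libraries (cohorts 1, 2 and 3) and 0.187, 0.312 and 0.349 CPM in WT libraries. On the IfnarKO background it was 1.43, 1.24 and 2.28 CPM in Suv39h1KO_IfnarKO and 0.226, 0.317 and 0.241 CPM in IfnarKO. All libraries without Suv39h1 stood above all libraries with it, and the rise was 2.14 ± 0.32 (adjusted p = 0.0015) with Ifnar and 2.64 ± 0.32 (adjusted p = 0.000305) without. IAP-d-int was 8.29, 9.48 and 12.3 CPM in Suv39h1KO and 3.49, 3.90 and 4.68 CPM in WT, a rise of 1.32 ± 0.21 (adjusted p = 0.00189). It was 9.93, 9.60 and 14.7 CPM in Suv39h1KO_IfnarKO and 4.18, 3.38 and 4.36 CPM in IfnarKO, a rise of 1.53 ± 0.21 (adjusted p = 0.000432). Here too the groups did not overlap on either background, and both subfamilies kept their call with gene totals alone and with the TE table's own TMM factors.

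The LTR of IAP1 proviruses, IAP1-MM_LTR, was 6.33, 4.30 and 6.18 CPM in Suv39h1KO_IfnarKO and 2.88, 1.84 and 2.13 CPM in IfnarKO, a rise of 1.30 ± 0.26 (adjusted p = 0.0215) whose call was lost under the TE table's own factors. With Ifnar it was 5.64, 3.33 and 5.21 CPM in Suv39h1KO and 2.54, 1.72 and 3.12 CPM in WT, a difference of 0.96 ± 0.26 that did not pass (adjusted p = 0.185). The difference between those backgrounds was itself tested and was called for 0 of 35 subfamilies (0 at an unadjusted p under 0.05; DESeq2 0; 0.0% of all subfamilies).

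Without the cohort block the subfamilies with most counts did not pass. IAPEz-int was 117, 161 and 133 CPM in Suv39h1KO and 140, 180 and 175 CPM in WT, overlapping groups with a difference of −0.27 ± 0.14, and the difference was 0.00 ± 0.14 on the IfnarKO background. The same held for IAPEY4_I-int (−0.52 ± 0.24 and −0.29 ± 0.24), IAPLTR3-int (−0.58 ± 0.24 and −0.54 ± 0.24), RLTR10-int (−0.10 and −0.28) and IAPLTR1_Mm (−0.07 and −0.06). IAP1-MM_I-int came closest, at 0.46 ± 0.15 (adjusted p = 0.496) and 0.64 ± 0.15 (adjusted p = 0.0736). Summed over all IAP copies the level was 296.2 ± 39.1 CPM of gene totals in Suv39h1KO and 343 ± 56.4 CPM in WT, and 354 ± 14.5 CPM in Suv39h1KO_IfnarKO and 355 ± 9.48 CPM in IfnarKO (SD, n = 3 each). The summed RLTR10 level was 88.1 ± 18.5 CPM in Suv39h1KO and 93.5 ± 18.97 CPM in WT.

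Cohort numbers paired the libraries of this experiment, and with the cohort as a block more subfamilies passed: 4 higher and 5 lower without Suv39h1 on the Ifnar-intact background, and 4 higher and 1 lower on the IfnarKO background. The share of all subfamilies called under the block is not given here, so these counts are not set against it. The block added IAP1-MM_LTR (0.96, adjusted p = 3.15e-05) and IAP1-MM_I-int (0.46, adjusted p = 0.00927) to the risers in Suv39h1KO. It added 5 small decreases there, the LTRs IAPEY5_LTR (−0.86), IAPLTR4 (−0.62) and IAPLTR2_Mm (−0.60) and the internal IAPLTR3-int (−0.54) and IAPEY4_I-int (−0.53). On the IfnarKO background IAP1-MM_I-int rose by 0.63 (adjusted p = 0.000151) and IAPLTR3-int fell by 0.55 (adjusted p = 0.0324) under the block.

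**Figure D1:**
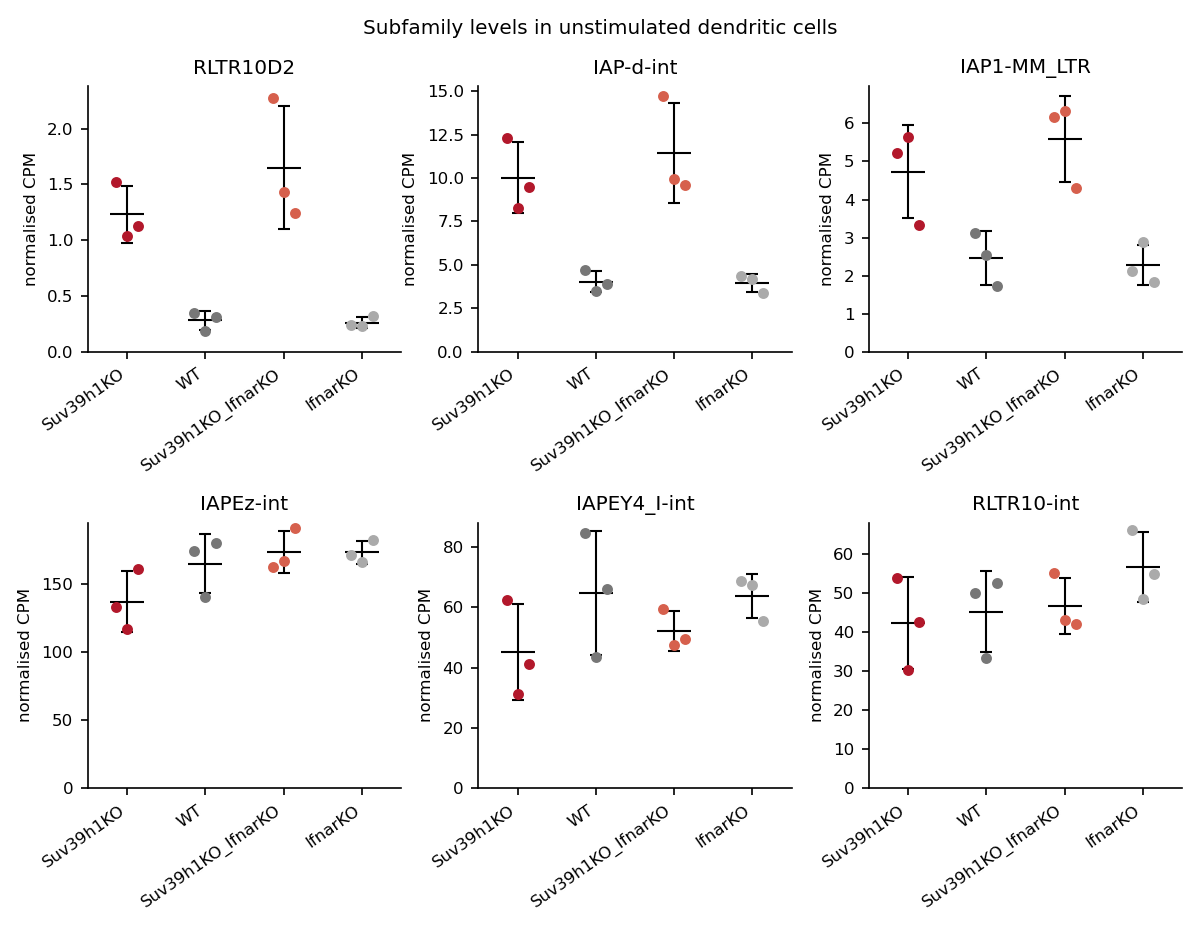
Levels (CPM, gene totals with TMM factors) of 6 subfamilies in unstimulated BMDC, with 1 point per library and bars at the mean ± SD of 3 libraries. The groups Suv39h1KO, WT, Suv39h1KO_IfnarKO and IfnarKO run from left to right; RLTR10D2 and IAP-d-int stand higher in both groups without Suv39h1, whereas IAPEz-int, IAPEY4_I-int and RLTR10-int overlap.

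Few single copies passed the test. After the filter of 10 counts in 3 libraries, 542 of the 39615 copies were tested, and a copy that passed only through the group where it is high had to differ. In Suv39h1KO 6 were higher and 6 lower than in WT (0.196% and 0.0608% of all copies), and on the IfnarKO background 7 were higher and 0 lower (0.186% and 0.049%). A group held 3 counts or fewer for 3 of the 12 called copies and for 3 of the 7, so those had to be high in the other group to be tested. RLTR10D2 copies 427363 and 427367 likewise reached 10 counts only in the libraries of this experiment without Suv39h1. All of these copies are described by their levels alone. The medians over the tested copies were −0.09 and −0.12, beside −0.05 and −0.13 over all TE copies. Of the 6 risers, 5 (83.3%) were also among the 7 (71.4%). Copies 427363, 427367, 904485 and 904486 are among these 5. The filter took those copies in only through libraries without Suv39h1 of both backgrounds, so this overlap is no support for a shared response. DESeq2 called 7 higher and 7 lower, and 8 higher and 0 lower. With the cohort as a block more copies passed in both comparisons, and some of those on the IfnarKO background were lower.

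IAP-d-int copy 427365 was 3.48, 3.98 and 5.79 CPM in Suv39h1KO and 0.401, 0.264 and 1.07 CPM in WT, a rise of 3.01 ± 0.50 (adjusted p = 0.00537). It was 4.93, 4.95 and 8.30 CPM in Suv39h1KO_IfnarKO and 0.210, 0.158 and 0.863 CPM in IfnarKO, a rise of 3.96 ± 0.52 (adjusted p = 0.000417). The copy alone made up 64.0% of the change of its subfamily with Ifnar and 75.9% without; without WT cohort 2 its Ifnar-intact call was lost. RLTR10D2 copy 427367, numbered next but one to it, was 0.573, 0.571 and 0.754 CPM in Suv39h1KO and 0.0535, 0.024 and 0.0931 CPM in WT. It held 60.7% of the RLTR10D2 change in Suv39h1KO and 61.2% on the IfnarKO background. RLTR10D2 copy 427363, on the other side, was 0.219, 0.331 and 0.393 CPM in Suv39h1KO and 0, 0.036 and 0.0698 CPM in WT. Without the copy with most counts of each subfamily, 0 subfamilies were called in Suv39h1KO, with RLTR10D2 at 1.40 and IAP-d-int at 0.70; on the IfnarKO background RLTR10D2 kept its call (1.82) and IAP-d-int did not (0.59).

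A pair of neighbouring numbers was at or near 0 in every WT and IfnarKO library of this experiment. IAP-d-int copy 904485 was 0.688, 0.583 and 0.565 CPM in Suv39h1KO and 0 in all 3 WT libraries, at least 41.03-fold higher against a floor of 3 counts over the group. On the IfnarKO background it was 0.668, 0.464 and 0.830 CPM in Suv39h1KO_IfnarKO and 0, 0 and 0.0201 CPM in IfnarKO. Its neighbour, RLTR10D copy 904486, was 0.25, 0.148 and 0.141 CPM in Suv39h1KO and 0 in WT, at least 12.1-fold higher, and at least 14.4-fold higher in Suv39h1KO_IfnarKO than in IfnarKO. IAPLTR2_Mm copy 3005983 was 0.104, 0.114 and 0.251 CPM in Suv39h1KO and 0 in WT, at least 10.5-fold higher, and its call held in 1 of 6 fits that left out a library. These copies were chosen after their values were seen, and all of them stayed below 1 CPM.

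On the IfnarKO background the IAP1 copies 4689515 and 4689518, close in number but in different runs, were also called. IAP1-MM_I-int copy 4689515 was 14.3, 8.57 and 13.4 CPM in Suv39h1KO_IfnarKO and 5.11, 2.43 and 4.51 CPM in IfnarKO (1.59 ± 0.33, adjusted p = 0.0495). With Ifnar it was 12.2, 6.32 and 9.61 CPM in Suv39h1KO and 4.48, 2.05 and 5.47 CPM in WT. The LTR copy 4689518 moved along, at 2.52, 1.83 and 2.38 CPM in Suv39h1KO_IfnarKO and 0.953, 0.475 and 0.642 CPM in IfnarKO. Groups did not overlap on either background, yet both calls were lost in every fit that left out a library, whereas the cohort block called 4689515 on both (1.28, adjusted p = 6.02e-06, and 1.62, adjusted p = 7.85e-08). The copy made up 75.5% and 77.1% of the IAP1-MM_I-int difference.

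All 6 copies that fell in Suv39h1KO were IAP copies, and 5 of them lie in a single run, numbered 2585585 to 2585592. IAPEz-int copy 2585591 was 1.37, 1.82 and 0.0628 CPM in Suv39h1KO and 5.96, 14.5 and 10.7 CPM in WT (−3.24 ± 0.56, adjusted p = 0.00823). It was 10.4, 8.19 and 4.78 CPM in Suv39h1KO_IfnarKO and 6.80, 6.38 and 6.18 CPM in IfnarKO, so no decrease was measured there. The LTR copies IAPLTR2_Mm 2585585 and 2585592 at both ends of the run fell by 3.13 and 3.50 with it. This run also varied within groups of the LPS experiment: copy 2585585 was 1.52, 0.267 and 0.295 CPM in the 0 h libraries labelled TrifKO. Under the cohort block the difference between the backgrounds was called for 5 copies, all of that run. The remaining faller, IAPEY4_I-int copy 2266050, was 15.9, 17.01 and 18.4 CPM in Suv39h1KO and 23.9, 33.05 and 37.9 CPM in WT (−0.89 ± 0.18, adjusted p = 0.0448), a call that held in 1 of 6 fits that left out a library and was lost under the TE table's own factors (−0.81). The cohort block called this copy lower in Suv39h1KO (−0.873, adjusted p = 0.000327) and on the IfnarKO background (−0.600, adjusted p = 0.0288).

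**Figure D2:**
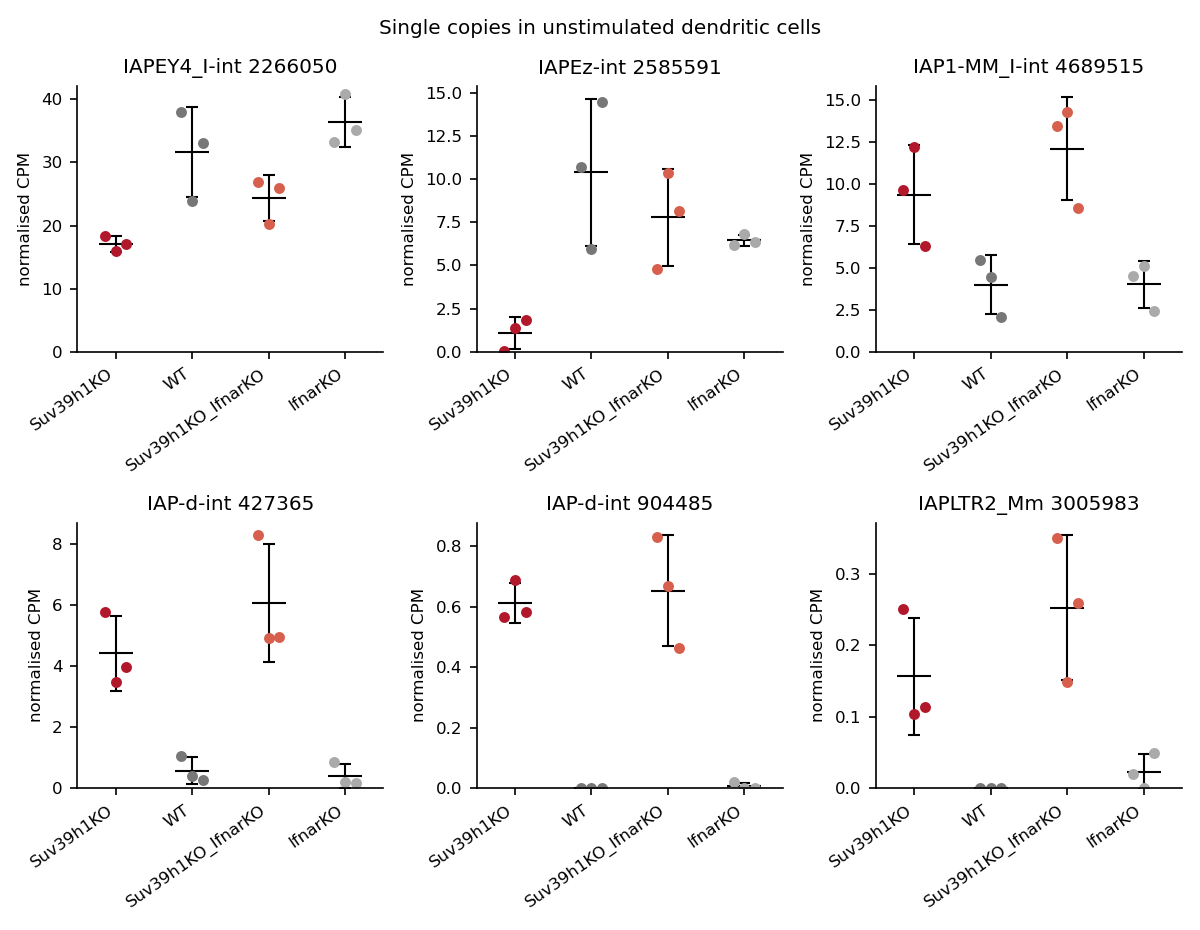
Levels (CPM) of 6 single copies in unstimulated BMDC, with 1 point per library and bars at the mean ± SD of 3 libraries, groups in the order Suv39h1KO, WT, Suv39h1KO_IfnarKO and IfnarKO. Copies 427365 and 904485 stand higher in both groups without Suv39h1, and copy 2585591 is lowest in Suv39h1KO alone.

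These copy counts moved with single libraries. Leaving out each library in turn gave 3 to 11 called copies in place of 12 for Suv39h1KO against WT and 4 to 5 in place of 7 on the IfnarKO background; the lowest came without WT cohort 2 and without IfnarKO cohort 2. For the difference between the backgrounds, 0 of 542 copies were called by edgeR (25 at an unadjusted p under 0.05; DESeq2 1; 0.0% of all copies). Dendritic marker sums were 1.76e4 to 1.99e4 CPM in Suv39h1KO and 1.38e4 to 1.72e4 CPM in WT, and fibroblast marker sums 14.5 to 25.2 CPM and 6.93 to 16.6 CPM; their part in the results was not tested.

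LPS raised a subset of subfamilies in WT BMDC, at or below the share called among all subfamilies, and IAPEz-int did not pass. At 2 h 12 of 35 subfamilies were higher and 0 lower than at 0 h (39.2% and 5.4% of all subfamilies), and at 4 h 20 were higher and 0 lower (58.9% and 6.77%). Both times are set against the same 0 h libraries. DESeq2 called 14 and 21 higher. The members' median at 4 h, 0.49, stood beside 0.50 for all subfamilies and 0.45 for other ERVK subfamilies, so the shift was not larger than that of the whole TE table.

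That shift depended on the scaling. The TMM factors of WT libraries were lower at 4 h than at 0 h, and with gene totals alone the median of all subfamilies at 4 h was −0.15, against −0.07 with the TE table's own factors. The split was then 11 higher and 10 lower with gene totals and 11 higher and 12 lower with the TE factors; at 2 h it was 7 and 8, and 9 and 8. Under all 3 scalings 10 subfamilies were called higher at 4 h and 7 at 2 h, and the directions below are named only for those unless stated. Counts under the other scalings or under all 3, here and below, are given without the share called among all features. They are therefore not read as a result about these families.

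IAPEY3-int was 2.87, 5.88 and 7.13 CPM at 0 h in WT (lowest, median and highest of 6 libraries), 3.03, 7.82 and 16.1 CPM after 2 h (5 libraries) and 14.5, 41.8 and 108 CPM after 4 h. All 4 h libraries stood above all 0 h libraries, with a rise of 3.27 ± 0.38 (adjusted p = 9.47e-09); the 2 h libraries overlapped with both. Its LTR, IAPEY3_LTR, rose by 2.34 ± 0.31 at 4 h (adjusted p = 9.82e-08). IAPEY4_I-int was 47.04, 72.5 and 89.5 CPM at 0 h, 71.8, 110 and 213 CPM after 2 h and 203, 272 and 370 CPM after 4 h, rising by 0.96 ± 0.22 at 2 h (adjusted p = 0.000744) and 1.99 ± 0.22 at 4 h (adjusted p = 2.86e-09). It was the subfamily with the greatest gain in CPM. The LTR IAPEY_LTR rose by 0.87 ± 0.17 at 2 h and 2.03 ± 0.16 at 4 h.

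Among RLTR10 LTRs, RLTR10E was 4.13, 4.92 and 5.54 CPM at 0 h, 5.61, 12.6 and 24.2 CPM after 2 h and 12.1, 17.3 and 27.5 CPM after 4 h. It rose by 1.66 ± 0.24 at 2 h (adjusted p = 1.65e-06) and 2.01 ± 0.23 at 4 h (adjusted p = 8.16e-09), with no overlap between 0 h and the later times. RLTR10 rose by 1.73 ± 0.27 and RLTR10D2 by 1.71 ± 0.29 at 4 h. RLTR10-int had a change of 1.14 ± 0.23 at 4 h (adjusted p = 7.35e-05) that did not pass with gene totals alone (0.47). Other IAP types called at 4 h under all scalings were IAPLTR3 (1.62 ± 0.37), IAPLTR1a_Mm (1.14 ± 0.13) and IAP1-MM_I-int (1.08 ± 0.12).

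IAPEz-int was 124, 189 and 207 CPM at 0 h, 112, 199 and 220 CPM after 2 h and 135, 203 and 242 CPM after 4 h, fully overlapping. Its change at 4 h was 0.13 ± 0.14 (adjusted p = 0.436) and turned to −0.53 (adjusted p = 0.00158) with gene totals and −0.44 (adjusted p = 2.02e-05) with the TE factors, where it was called lower. Likewise IAPLTR1_Mm (0.35 ± 0.16, adjusted p = 0.055) turned negative under both. Summed over all IAP copies, WT libraries had 529 ± 100 CPM of gene totals at 4 h and 429 ± 72.3 CPM at 0 h, and 0.982% and 0.938% of TE counts (SD, n = 6 each).

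**Figure D3:**
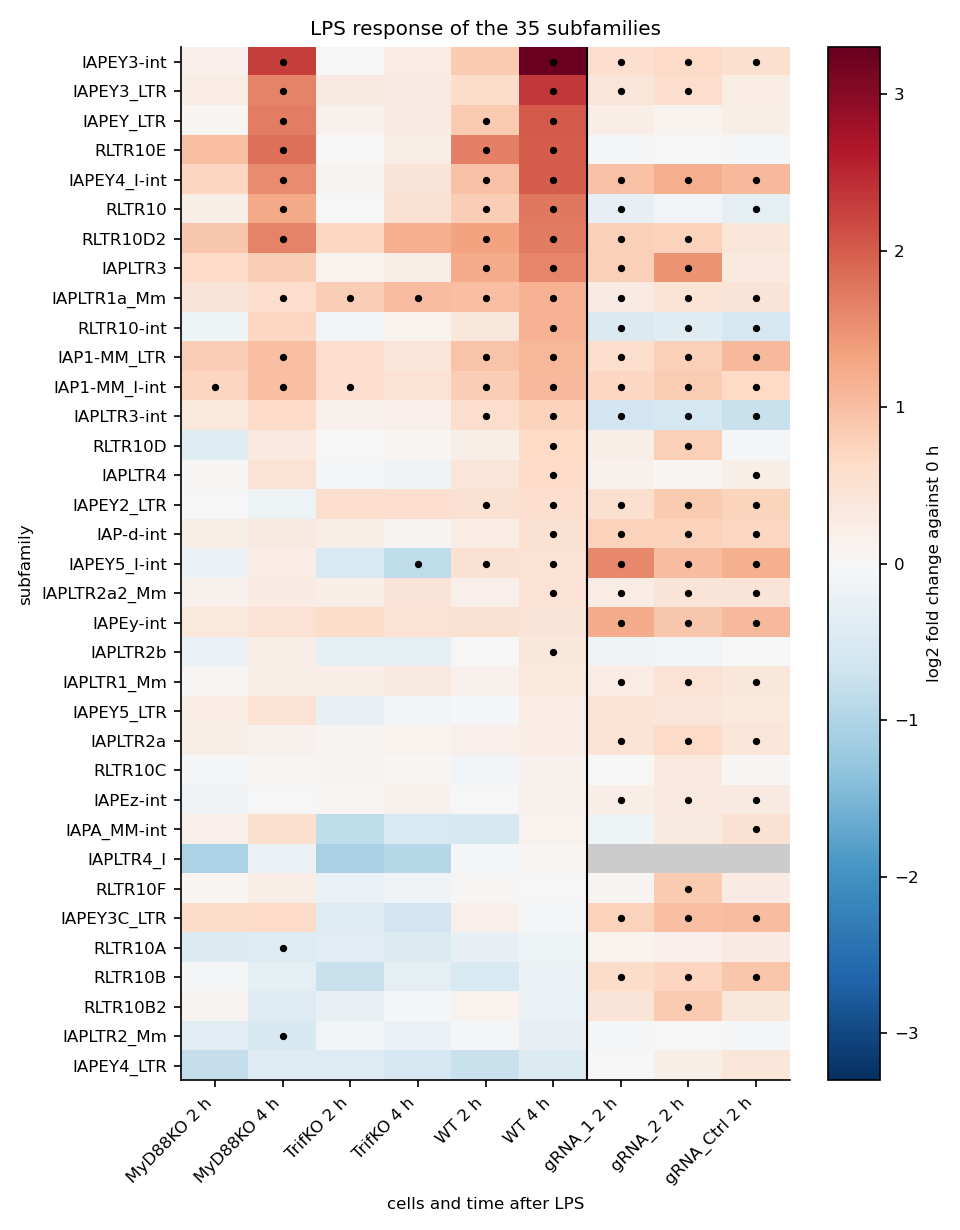
Log2 fold change after LPS for the 35 subfamilies (rows) in MyD88KO, TrifKO and WT BMDC at 2 h and 4 h and in RAW264.7 with gRNA_1, gRNA_2 and gRNA_Ctrl at 2 h (columns), each against its own 0 h libraries; dots mark adjusted p under 0.05 and grey a subfamily that was not tested. The IAPEY3, IAPEY4_I-int, IAPEY_LTR and RLTR10E rows are high in WT and MyD88KO at 4 h and less so in TrifKO, and IAPLTR3-int and RLTR10-int are lower in RAW264.7.

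Single copies made most of these subfamily changes. The leading copy held over 50% of the difference between 4 h and 0 h in 12 of the 20 called subfamilies, with a median of 59.2%; copy 780275 held 99.2% of IAPEY_LTR, copy 323530 held 91.6% of IAPEY3-int, copy 3620453 held 76.0% of IAPEY4_I-int and copy 324037 held 69.6% of RLTR10E. Without the copy with most counts of each subfamily, 15 subfamilies were still called higher at 4 h, and at 2 h 7 were higher and 1 lower.

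**Figure D4:**
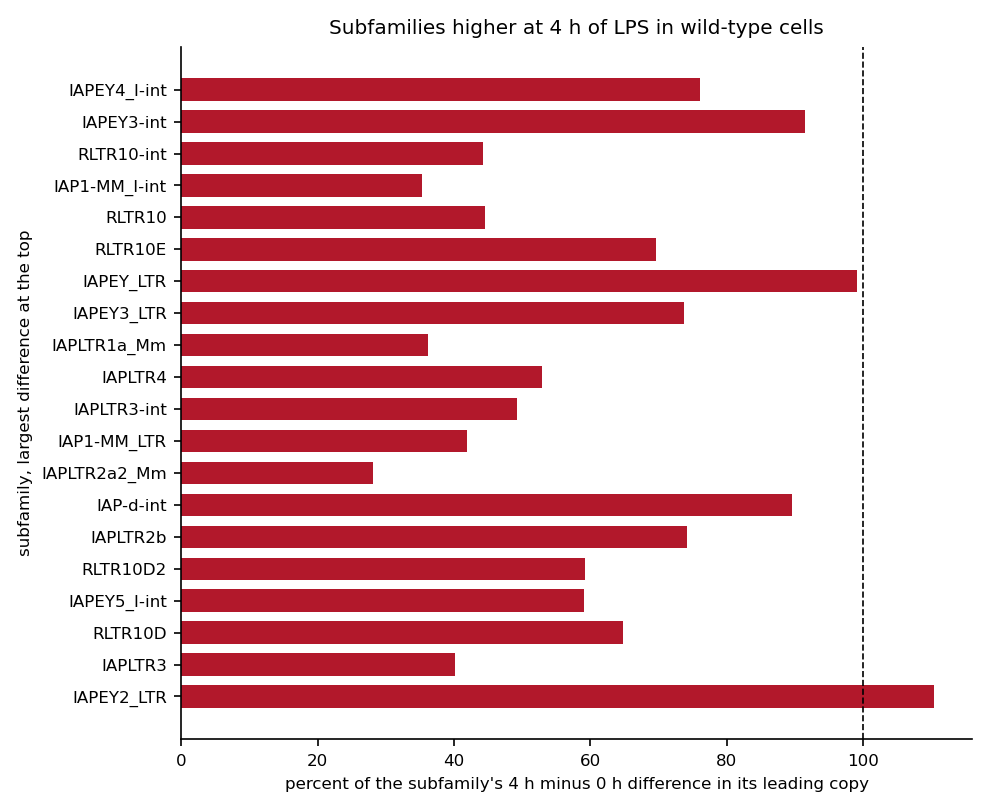
Share (%) of the difference in CPM between 4 h and 0 h of LPS in WT BMDC that the leading copy of each of the 20 called subfamilies holds, 1 bar per subfamily, with a dashed line at 100%. The share runs from 28.1% in IAPLTR2a2_Mm to 110.5% in IAPEY2_LTR, where the rest of the subfamily moved the other way.

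Of 648 copies tested in the LPS experiment, 104 were higher and 74 lower at 2 h in WT (20.3% and 10.9% of all copies) and 153 were higher and 107 lower at 4 h (28.4% and 14%). With gene totals alone the counts were 69 and 123 at 2 h and 97 and 192 at 4 h, and with the TE factors 77 and 114, and 109 and 184. The share of all copies called under these scalings is not given here. The tested copies' median at 4 h was 0.14, against 0.24 for all TE copies. By family, 102 of 496 IAP copies (20.6%) and 51 of 152 RLTR10 copies (33.6%) were higher, and 75 (15.1%) and 32 (21.1%) lower. The 260 calls fell in 169 runs; 52 runs held at least 2 called copies, and 0 of them held both directions. A group held 3 counts or fewer for 10 of the 178 calls at 2 h and 12 of the 260 at 4 h.

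IAPEY4_I-int copy 3620453, the most abundant copy of the experiment, was 12.02, 22.03 and 30.1 CPM at 0 h in WT (lowest, median and highest), 27.2, 43.8 and 114 CPM after 2 h and 132, 176 and 237 CPM after 4 h. The 4 h libraries lay above all others, a rise of 3.08 ± 0.30 (adjusted p = 1.33e-10). IAPEY3-int copy 323530 was 0.134, 0.386 and 1.14 CPM at 0 h, 0.276, 2.37 and 7.83 CPM after 2 h and 9.70, 34.1 and 94.3 CPM after 4 h, a rise of 6.39 ± 0.71 at 4 h. Its neighbour, IAPEY3-int copy 323529, had 0 to 4 counts in the WT libraries at 0 h and 45 to 290 after 4 h. In this experiment it reached 10 counts only in libraries given LPS, so it was tested only through groups where it is high. RLTR10E copy 324037 was 0.267, 0.647 and 0.886 CPM at 0 h, 1.34, 7.02 and 13.2 CPM after 2 h and 6.52, 10.5 and 14.8 CPM after 4 h (4.11 ± 0.38 at 4 h). IAPEY_LTR copy 780275 was 0.779, 1.20 and 1.74 CPM at 0 h and 4.62, 8.37 and 9.23 CPM after 4 h (2.62 ± 0.23). For the copies 3620453, 323530, 324037 and 780275 all 4 h libraries stood above all 0 h libraries.

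Among the 107 copies lower at 4 h, 55 were internal and 52 LTR copies. RLTR10-int copy 3851986 was 1.04, 1.54 and 2.15 CPM at 0 h in WT, 0.0764, 0.135 and 0.221 CPM after 2 h and 0.0559, 0.0828 and 0.188 CPM after 4 h, a fall of −3.41 ± 0.30 at 2 h and −3.77 ± 0.29 at 4 h (adjusted p = 6.92e-13). RLTR10-int copy 3851988, in the neighbouring run, changed by −3.90 ± 0.41 at 4 h. IAPEz-int copy 838019, the IAPEz-int copy with most counts, was 8.29, 13.04 and 20.4 CPM at 0 h, 4.20, 6.77 and 10.7 CPM after 2 h and 2.67, 3.83 and 7.05 CPM after 4 h (−1.67 ± 0.29). The IAPEz-int sum, whose direction turned with the scaling, held copies called in both directions, among them copy 99311, which was 0.0801, 0.670 and 1.01 CPM at 0 h and 3.65, 5.35 and 8.27 CPM after 4 h (3.20 ± 0.41, adjusted p = 5.06e-08).

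On the same untested assumption about the numbering, each called copy was set beside its neighbours. Among copies called higher at 4 h in WT that had a tested repeat of another family within 5 running numbers, 103 of 111 (92.8%) had such a neighbour called higher too. The share was 57 of 67 (85.1%) for copies called lower with a neighbour called lower. Among copies not called that had such a tested neighbour, 54 of 181 (29.8%) had one called in either direction. For Suv39h1KO 5 of the 6 risers (83.3%) had a neighbour called higher. Of the 6 fallers 1 had a tested neighbour, and 0 had a neighbour called lower. Among copies not called with a tested neighbour, 4 of 299 (1.34%) had one called in either direction. Copies with close numbers, such as 427363, 427365 and 427367, can share the same neighbours, so these shares do not count independent loci.

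MyD88KO BMDC showed much of the 4 h response. At 2 h 1 subfamily was higher and 0 lower (6.98% and 0.741% of all subfamilies, 7.72% in either direction), IAP1-MM_I-int at 0.70 ± 0.17 (adjusted p = 0.0074), whose call was lost under both other scalings. At 4 h 10 were higher and 2 lower (34.5% and 2.54%, 37.0% in either direction), with 7 higher and 2 lower with gene totals and 8 higher and 7 lower with the TE factors. The 7 called higher under all scalings include the 3 described next. IAPEY3-int was 3.82, 3.41 and 4.63 CPM at 0 h, 4.33, 3.56 and 5.53 CPM after 2 h and 16.9, 16.5 and 24.3 CPM after 4 h (2.28 ± 0.53, adjusted p = 0.00125). RLTR10E was 4.89, 4.41 and 4.42 CPM at 0 h, 9.75, 7.74 and 9.81 CPM after 2 h and 14.9, 14.8 and 18.9 CPM after 4 h (1.82 ± 0.33, adjusted p = 7.33e-05). IAPEY4_I-int was 74.3, 60.6 and 59.6 CPM at 0 h, 130, 118 and 71.4 CPM after 2 h and 216, 189 and 164 CPM after 4 h (1.55 ± 0.31, adjusted p = 0.000247). For each of these the 4 h libraries stood apart from the 0 h libraries. IAPLTR2_Mm (−0.53 ± 0.20) and RLTR10A (−0.44 ± 0.16) fell. Of copies, 19 were higher and 10 lower at 2 h (6.19% and 0.95% of all copies) and 66 higher and 27 lower at 4 h (13.2% and 2.4%). With gene totals those copy counts were 13 and 15 at 2 h and 45 and 49 at 4 h, and with the TE factors 16 and 19, and 45 and 66. A group held 3 counts or fewer for 5 of the 29 calls at 2 h and 15 of the 93 at 4 h.

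The difference in response between MyD88KO and WT was called for 0 subfamilies by edgeR at 2 h (3 at an unadjusted p under 0.05; DESeq2 0; 0.0% of all subfamilies higher and 0.106% lower) and for 0 at 4 h (2 unadjusted; DESeq2 0; 0.212% and 2.54%). For copies it was called for 0 at 2 h (46 unadjusted; DESeq2 1; 0.0% and 0.00462%), and at 4 h for 2 with a higher and 1 with a lower response (0.0601% and 0.0662%). These calls did not last: 0 copies were called with WT libraries of the low library set alone, the set of MyD88KO, 0 with only the compared groups in the fit, and 0 to 4 when each library was left out, with 0 without any one of the MyD88KO libraries at 0 h. RLTR10-int copy 3851986 was 2.44, 1.65 and 2.07 CPM at 0 h in MyD88KO, 0.494, 0.485 and 0.488 CPM after 2 h and 0.873, 0.564 and 0.412 CPM after 4 h. It fell less than in WT, by −1.73 ± 0.34 at 4 h, a difference of 2.04 ± 0.45 (adjusted p = 0.045). RLTR10C copy 4306309 differed by 3.50 ± 0.74 (adjusted p = 0.0336) at levels below 1 CPM. IAPEz-int copy 2411802 was 0.426, 0.412 and 0.118 CPM after 4 h and 0.346, 0.266 and 0.259 CPM at 0 h in MyD88KO, against 1.15 to 1.94 CPM and 0.208 to 0.370 CPM in WT, a difference of −2.24 ± 0.46 (adjusted p = 0.0259) that was lost under both other scalings.

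In the libraries labelled TrifKO few subfamilies were called. At 2 h 2 were higher and 0 lower (5.19% and 1.16% of all subfamilies, 6.35% in either direction), and at 4 h 1 higher and 1 lower (8.25% and 2.12%). The split was 1 and 2 at both times with gene totals, and 1 and 2 at 2 h and 1 and 4 at 4 h with the TE factors. IAPLTR1a_Mm, an LTR of IAP elements, was 3.45, 3.94 and 3.77 CPM at 0 h, 6.38, 6.90 and 6.38 CPM after 2 h and 8.23, 7.54 and 6.92 CPM after 4 h. It was the subfamily called higher at both times under every scaling, at 0.82 ± 0.19 (adjusted p = 0.00478) and 1.02 ± 0.19 (adjusted p = 0.000283). The others were IAP1-MM_I-int at 2 h (0.55 ± 0.17, adjusted p = 0.0481) and IAPEY5_I-int at 4 h (−0.85 ± 0.28, adjusted p = 0.048), and each lost its call without replicate 3 of that time (0.52 and −0.60). Without the copy with most counts of each subfamily, 0 subfamilies were called at either time. IAPEY3-int was 6.62, 7.004 and 6.09 CPM at 0 h, 7.18, 7.44 and 4.97 CPM after 2 h and 8.30, 9.29 and 5.81 CPM after 4 h. RLTR10E was 4.91, 5.03 and 4.35 CPM at 0 h and 5.43, 6.26 and 4.90 CPM after 4 h, levels that overlapped at the 2 times. Of copies, 20 were higher and 17 lower at 2 h (3.85% and 1.37% of all copies) and 24 higher and 12 lower at 4 h (4.0% and 1.41%). With gene totals the copy counts were 17 and 22 at 2 h and 16 and 20 at 4 h, and with the TE factors 24 and 21, and 23 and 22. A group held 3 counts or fewer for 5 of the 37 calls at 2 h and 4 of the 36 at 4 h.

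The response was smaller than in WT for 7 subfamilies at 4 h and larger for 0 (15.8% and 0.847% of all subfamilies), and smaller for 1, RLTR10E (−1.68, adjusted p = 0.0182), at 2 h (2.33% of all lower and 0.0% higher). The 7 were IAPEY3-int (−3.02 ± 0.63, adjusted p = 0.00097), IAPEY3_LTR (−2.07 ± 0.53), RLTR10E (−1.79 ± 0.40), IAPEY_LTR (−1.76 ± 0.29, adjusted p = 6.98e-05), IAPEY4_I-int (−1.57 ± 0.37, adjusted p = 0.00293), IAPEY5_I-int (−1.34 ± 0.34) and IAP1-MM_I-int (−0.59 ± 0.21). Without replicate 3 at 4 h, the library with little Ticam1, 7 were again called, with IAPEY4_I-int at −1.39; without replicate 3 at 2 h the RLTR10E difference at 2 h was −1.67 and no longer passed. With gene totals alone 5 were lower, and with the TE factors 7 lower and 2 higher. Without the copy with most counts of each subfamily 1 was lower, and the IAPEY_LTR difference turned to 0.07. Within the WT libraries of the high library set alone, the set to which these libraries belong, 13 were lower at 4 h.

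For copies the response was smaller for 5 and larger for 0 at 2 h (1.07% and 0.0262% of all copies) and smaller for 12 and larger for 1 at 4 h (2.09% and 0.273%); at 4 h it was smaller for 8 and larger for 9 with gene totals, and smaller for 14 and larger for 7 with the TE factors. IAPEY4_I-int copy 3620453 was 24.3, 23.3 and 25.5 CPM at 0 h in these libraries, 37.9, 32.0 and 21.6 CPM after 2 h and 54.9, 55.9 and 27.2 CPM after 4 h, each 4 h value below the lowest WT value of 132 CPM. The difference in response was −2.16 ± 0.48 (adjusted p = 0.00758), and without replicate 3 at 4 h −1.89 (adjusted p = 0.0537). IAPEY3-int copy 323530 was 2.55, 2.76 and 0.537 CPM after 4 h and 0.681, 0.695 and 0.722 CPM at 0 h (difference −4.91 ± 1.09, adjusted p = 0.00668). IAPEY_LTR copy 780275 was 0.748, 1.57 and 1.05 CPM after 4 h and 1.05, 0.677 and 0.869 CPM at 0 h (−2.25 ± 0.39, adjusted p = 0.000403). In all of these, replicates 1 and 2, whose Ticam1 at 4 h lay within the WT range of 31.8 to 58.4 CPM, also had levels below those of every WT library at 4 h.

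The single copy with a larger response, IAPEz-int copy 1604992, rested on replicate 3. It was 0.0619, 0 and 0.0656 CPM at 0 h, 0.0868, 0.0607 and 1.59 CPM after 2 h and 0.125, 0.0378 and 2.07 CPM after 4 h, so the 2 libraries with little Ticam1 were high. Its difference of 5.23 ± 1.21 became 2.11 (adjusted p = 0.6) without replicate 3 at 4 h. IAPLTR2_Mm copy 3005983 ran the other way, with 1.19, 1.40 and 0.0409 CPM after 2 h and 0.659, 0.794 and 0.0413 CPM after 4 h. The total of copies with a different response at 4 h, 13, fell to 7 without that replicate and rose to 22 without WT replicate 2.

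Some copies responded in the libraries labelled TrifKO as well. IAPEz-int copy 6018 was 0.124, 0.143 and 0.164 CPM at 0 h and 4.27, 3.63 and 2.40 CPM after 4 h (4.56 ± 0.61), and in WT 0 to 0.234 CPM and 0.678 to 1.70 CPM (3.17 ± 0.43). IAPEz-int copy 2411802 was 2.63, 2.19 and 3.76 CPM after 4 h and 0.356, 0.214 and 0.459 CPM at 0 h (3.05 ± 0.36). RLTR10-int copy 3851986 was 1.36, 1.35 and 1.26 CPM at 0 h, 0.173, 0.142 and 0.0613 CPM after 2 h and 0.142, 0.208 and 0.248 CPM after 4 h (−2.73 ± 0.38, adjusted p = 1.08e-05). IAPEz-int copy 99311 rose in all 3 genotypes at 4 h: by 2.72 ± 0.58 in MyD88KO, 1.79 ± 0.55 in the libraries labelled TrifKO and 3.20 ± 0.41 in WT.

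**Figure D5:**
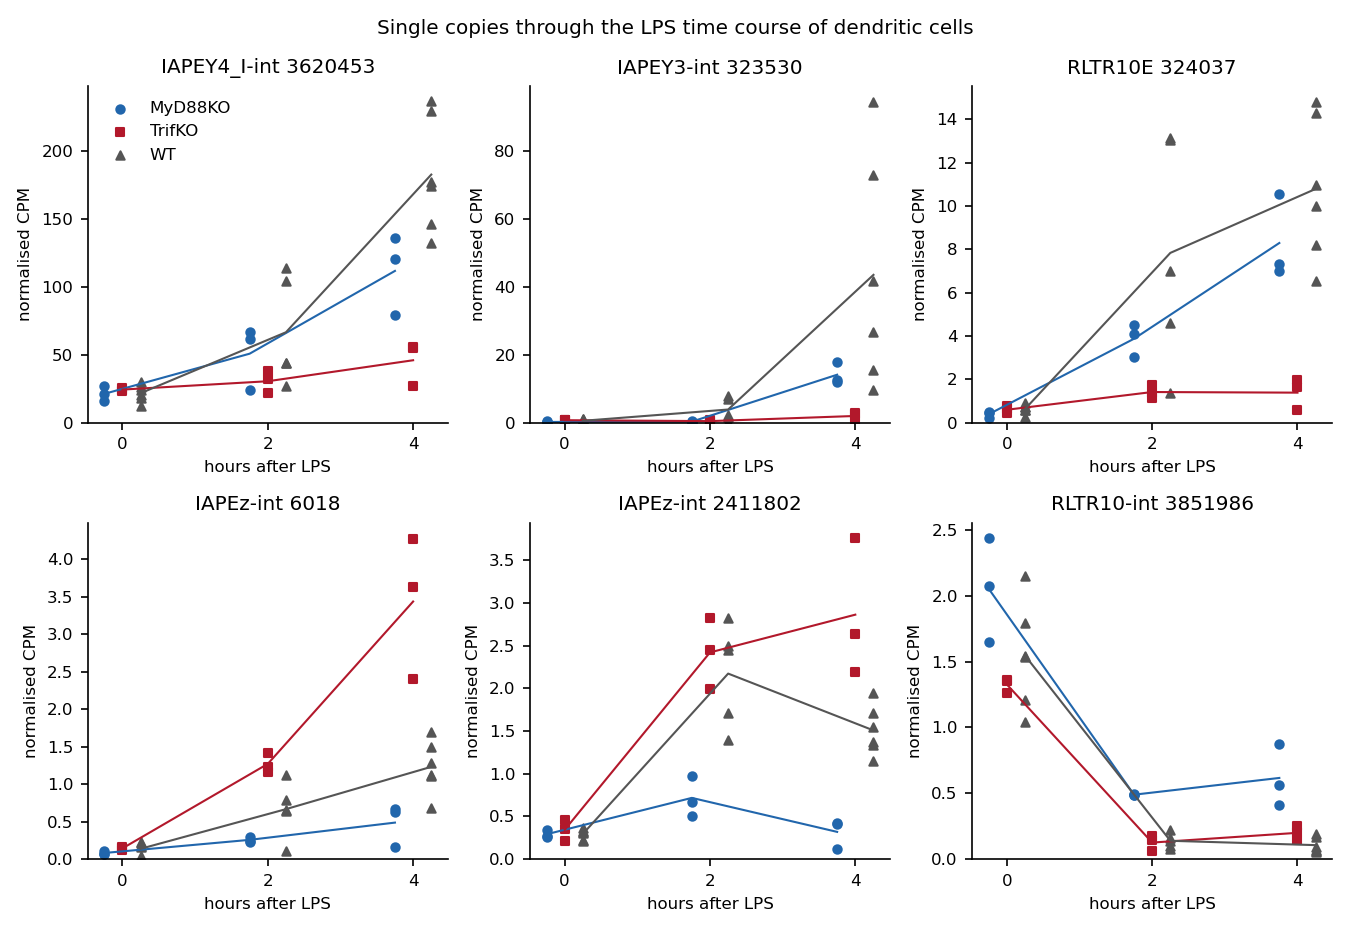
Levels (CPM) of 6 copies at 0, 2 and 4 h of LPS in BMDC; each point is a library (circles MyD88KO, squares TrifKO, triangles WT) and lines join group means. Copies 3620453, 323530 and 324037 rise in MyD88KO and WT and reach lower levels at 4 h in TrifKO. Copy 2411802 rises in TrifKO and WT, and RLTR10-int copy 3851986 falls in each genotype.

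At 0 h few differences between genotypes were called. MyD88KO and WT differed in 0 subfamilies by edgeR (5 at an unadjusted p under 0.05; DESeq2 0; 0.0% of all subfamilies; 2 higher with the TE factors), and the libraries labelled TrifKO and WT in 0 (1 unadjusted; DESeq2 0; 0.0%). Of copies, 5 were higher and 0 lower in MyD88KO (0.111% and 0.0462% of all copies; DESeq2 3), all IAPEz-int and 2 of them with a group at 3 counts or fewer, and 0 differed for the TrifKO label (39 unadjusted; DESeq2 1; 0.0%). IAPEz-int copy 35201 was 2.87, 1.56 and 0.463 CPM in MyD88KO and at most 0.0502 CPM in WT; it had 10 counts or more in MyD88KO libraries alone, so it was tested only through the group where it is high. Without MyD88KO replicate 1 the count was 2.

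LPS also changed subfamilies in RAW264.7 macrophages, IAPEY4_I-int among them as in BMDC, and a difference between the cell types was not tested. At 2 h of LPS 17 of 34 subfamilies tested were higher and 3 lower with gRNA_Ctrl (50.9% and 5.34% of all subfamilies), 18 and 3 with gRNA_1 (52.8% and 5.02%) and 21 and 2 with gRNA_2 (58.3% and 3.95%). With gene totals the counts were 12 and 4 for gRNA_Ctrl, 9 and 6 for gRNA_1 and 19 and 2 for gRNA_2, and with the TE factors 10 and 6, 7 and 6, and 10 and 7. With gRNA_Ctrl 10 were higher and 3 lower under all scalings. IAPEY4_I-int was 117, 119 and 121 CPM after 2 h and 54.3, 54.9 and 61.1 CPM at 0 h with gRNA_Ctrl (1.07 ± 0.08, adjusted p = 2.14e-12). IAPEY5_I-int (1.18 ± 0.18), IAPEy-int (1.06 ± 0.17), IAPEY3C_LTR (1.02 ± 0.18), RLTR10B (0.92 ± 0.21) and IAP1-MM_I-int (0.66 ± 0.07) also rose under all scalings. IAPEz-int was 436, 396 and 412 CPM after 2 h and 350, 334 and 335 CPM at 0 h, a change of 0.29 ± 0.07 that shrank to 0.11 with gene totals and turned to −0.01 with the TE factors.

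The 3 that fell were IAPLTR3-int, RLTR10-int and RLTR10 (−0.30 ± 0.11, adjusted p = 0.0228). IAPLTR3-int was 43.1, 43.5 and 39.98 CPM after 2 h and 68.9, 75.4 and 66.8 CPM at 0 h (−0.74 ± 0.07, adjusted p = 8.31e-10), and copy 3982068 accounted for 102% of it, at 21.1, 21.1 and 20.9 CPM after 2 h and 48.7, 53.8 and 47.2 CPM at 0 h (−1.24 ± 0.09, adjusted p = 4e-13). Without that copy the change was 0.04. RLTR10-int was 18.6, 17.9 and 14.8 CPM after 2 h and 25.8, 23.6 and 25.03 CPM at 0 h (−0.54 ± 0.10, adjusted p = 6.05e-05). Without the copy with most counts of each, RLTR10-int no longer passed and the RLTR10 change turned to 0.0415. RLTR10-int copy 3851986 was 1.58, 1.74 and 1.56 CPM after 2 h and 8.72, 6.83 and 7.13 CPM at 0 h (−2.22 ± 0.20), the same copy that was lower in the BMDC.

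Of 1027 copies tested, 114 were higher and 28 lower with gRNA_Ctrl (15.9% and 4.81% of all copies), 100 and 26 with gRNA_1 (16.9% and 4.52%) and 116 and 26 with gRNA_2 (17.7% and 4.29%). With gene totals the counts were 85 and 45, 79 and 41, and 87 and 40 in that order of guides, and with the TE factors 74 and 70, 73 and 55, and 70 and 51. IAPEz-int copy 2869412 was 8.59, 5.57 and 5.49 CPM after 2 h and 0.251, 0.278 and 0.375 CPM at 0 h with gRNA_Ctrl (4.45 ± 0.30, adjusted p = 9.86e-14). The LTR next to it, IAPLTR1a_Mm copy 2869411, was at least 47.5-fold higher at 2 h. That LTR copy had 0 counts at 0 h with every guide, so the filter took it in only through libraries given LPS. A group held 3 counts or fewer for 21 of the 142 calls with gRNA_Ctrl, 19 of the 126 with gRNA_1 and 18 of the 142 with gRNA_2. IAPEY4_I-int copy 3620453 was 34.2, 37.8 and 33.3 CPM after 2 h and 8.93, 9.87 and 12.1 CPM at 0 h (1.77 ± 0.14). Set beside WT BMDC at 2 h, 25 copies were called higher in both, 21.9% of the 114 and 24% of the 104, and 8 lower in both, 28.6% of the 28 and 10.8% of the 74. Of all copies, 15.9% were called higher in RAW264.7 and 20.3% in WT BMDC at 2 h, and 4.81% and 10.9% lower.

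The response with gRNA_1 or gRNA_2 was not shown to differ from that with gRNA_Ctrl: the difference from gRNA_Ctrl was called by edgeR for 0 subfamilies (1 with gRNA_1 and 3 with gRNA_2 at an unadjusted p under 0.05; DESeq2 0) and for 0 copies (60 and 71 unadjusted; DESeq2 0), with 0.0% called among all. At 0 h, 1 subfamily was lower with gRNA_1 and 5 with gRNA_2 (1.49% and 4.48% of all subfamilies), and 0 were higher with either (0.213% and 0.64%). IAPEY4_I-int was among them for gRNA_1 (−0.33 ± 0.08, adjusted p = 0.0135), and IAPLTR3 (−1.18 ± 0.34), RLTR10D (−0.88 ± 0.20) and IAPEz-int (−0.30 ± 0.07) for gRNA_2; with the TE factors the counts were 0 and 1. Of copies, 2 were higher and 11 lower with gRNA_1 (0.0552% and 0.189% of all copies), and 4 higher and 14 lower with gRNA_2 (0.104% and 0.259%), all of IAP. A group held 3 counts or fewer for 4 of the 13 calls with gRNA_1 and 8 of the 18 with gRNA_2. IAPEz-int copy 1496237 was 0.1398, 0.141 and 0.0372 CPM with gRNA_1, 0.160, 0.0531 and 0.101 CPM with gRNA_2 and 2.61, 2.91 and 2.12 CPM with gRNA_Ctrl, lower by 4.55 ± 0.30 on the log2 scale in both. Whether each guide line is 1 clone is not given in the sources used here.

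Genes that silence or restrict retroelements were set beside these elements. Of 33 silencing genes tested (among them H3K9 methyltransferases, TRIM28, HUSH subunits and DNA methyltransferases), 0 were higher and 1, Suv39h1 itself, was lower in Suv39h1KO than in WT (0.153% and 0.0556% of all genes), and the same held on the IfnarKO background (0.188% and 0.0348%). After 4 h of LPS in WT 10 were higher and 13 lower (30.0% and 35.1% of all genes), among them Daxx, a histone H3.3 chaperone, at 3.66 ± 0.17, and Cbx3, an HP1 protein that reads the methylated histone, at −1.64; their median was −0.07, as for all genes, and with gene totals alone 4 were higher and 26 lower. Of 22 restriction genes, which limit retroviruses and retrotransposons and many of which respond to interferon, 0 were called by edgeR in Suv39h1KO in either direction (1 at an unadjusted p under 0.05; DESeq2 0).

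At 4 h of LPS in WT 16 restriction genes were higher and 4 lower, with a median of 1.91 against −0.07 for all genes, led by the RNA exonuclease gene Isg20 (6.75), Pml (4.16), Trim30a (3.92) and the helicase gene Mov10 (3.53). In MyD88KO 16 were higher and 2 lower at 4 h (17.1% and 17% of all genes), and in the libraries labelled TrifKO 8 and 3 (14.4% and 11.5%). The response at 4 h was smaller under the TrifKO label than in WT for 16 of the 22 and larger for 0 (9.3% and 8.99% of all genes). In RAW264.7 with gRNA_Ctrl 6 were higher and 3 lower at 2 h (26.3% and 25.3% of all genes), a split that turned to 4 higher and 11 lower with gene totals alone.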

How the data were processed

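Polyadenylated RNA of 65 mouse libraries was sequenced with a stranded kit, per the labels' protocols. The authors deposited raw read counts per gene and per repeat copy; STAR, HOMER, DESeq2 and the build mm10 are named in the submitters' processing notes, while versions, the use of strand and the treatment of reads that align to several places are not given in the sources used here. Reads of near-identical copies may therefore be split or lost, so values of single IAP copies are uncertain in their locus.

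Copy counts were summed by subfamily. Library sizes were gene totals times TMM factors of the gene table. Subfamilies passed edgeR's filterByExpr (minimum count 10) and copies needed 10 counts in 3 libraries; all groups of an experiment were fitted together by edgeR's quasi-likelihood test (edgeR 4.0.16, limma 3.58.1, R 4.3.3), with Benjamini-Hochberg adjustment over all TE subfamilies, TE copies or genes and a threshold of 0.05. Differences between responses are interaction contrasts. The fits were tested on simulated counts. Alternatives were DESeq2 1.42.0, gene totals without TMM factors, factors of the TE table, other filters, only the compared groups, replicate blocks, library sets, summed WT libraries, sums without the copy with most counts, and leaving out each library. Bounds use a floor of 3 counts over the group and cover counting error only. Tables and plots used Python 3.11.15, pandas 2.3.3, numpy 2.4.6 and matplotlib 3.10.9.

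Named were the 6 subfamilies with most counts, up to 6 called subfamilies per direction with at least 50 counts a library, the 5 copies with most counts per experiment, up to 5 called copies per direction whose groups do not overlap and whose higher group averages 1 CPM or more, and up to 4 genes per list. Other copies were named after their values were seen. Members and lists were chosen with earlier results of these data known. Cohort numbers paired the libraries of the Suv39h1 experiment: same-numbered libraries deviated together in all 18 pairs (mean correlation 0.601, against −0.294 for other pairs). Values with the cohort block therefore stand beside the subfamily results and some single copies, and the block's counts of copies are in the closing section. In the LPS experiment WT libraries came in a low and a high set of library numbers; MyD88KO falls in the low and TrifKO in the high set. The lowest chi-square per gene among 88 pairs of libraries within groups was 5.08, so no pair differed by counting error alone. Some pairs were much closer than others. WT replicates 1b and 2b of the LPS experiment gave 16.86, 10.51 and 13.63 at 0, 2 and 4 h, and the other WT pairs at 0 h 39.12 to 271.7. Whether libraries share an animal or a culture was not tested. The repeat table was used without coordinates, and no sequence of single copies was used here.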

Additional observations from a re-analysis of the deposited data

Results flagged for a closer look

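Groups of 4 to 10 libraries, which were WT at 0, 2 and 4 h of LPS, were checked for a library far from the others. Of 72 checks, each of a named subfamily in a group, 6 found one. Chance gives about 1 in 20 for independent checks, but these checks share the same libraries. In WT at 0 h, replicate 2 stood below the other 5 libraries for IAPEz-int (123.9 CPM), IAPLTR1_Mm (8.947 CPM) and IAP-d-int (3.485 CPM). RLTR10A was highest and apart in WT at 0 h replicate 3 (7.417 CPM), IAPEY5_I-int in WT at 0 h replicate 2b (2.158 CPM) and IAPEy-int in WT at 4 h replicate 1b (1.308 CPM).

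The LPS response under the TrifKO label differed from that in WT by an interaction test for these subfamilies at 4 h, as log2 differences: IAPEY3-int −3.02, IAPEY3_LTR −2.07, RLTR10E −1.79, IAPEY_LTR −1.76, IAPEY4_I-int −1.57, IAPEY5_I-int −1.34 and IAP1-MM_I-int −0.59. At 2 h RLTR10E differed by −1.68. Among copies at 4 h the differences were −5.32 for IAPEY3-int copy 323529, −4.91 for IAPEY3-int copy 323530, −4.83 for IAPEz-int copy 2272855, −3.95 for RLTR10F copy 3532163 and −3.62 for IAPEz-int copy 2272856. They were −2.89 for RLTR10E copy 324037, −2.77 for IAPEz-int copy 3084115, −2.71 for RLTR10E copy 324033, −2.59 for RLTR10-int copy 2048688, −2.40 for RLTR10-int copy 4099220, −2.25 for IAPEY_LTR copy 780275 and −2.16 for IAPEY4_I-int copy 3620453. IAPEz-int copy 1604992 differed by 5.23, which rests on replicate 3. At 2 h the differences were −7.54 for IAPLTR1a_Mm copy 1975301 (0 counts in the TrifKO libraries at 2 h, so that the fitted value is no measure of size), −5.77 for IAPEz-int copy 2272855, −4.49 for IAPEz-int copy 2272856, −2.96 for RLTR10E copy 324033 and −2.40 for RLTR10E copy 324037. Copies 2272855 and 2272856 belong to a shared run, as do 324033 and 324037 to neighbouring runs, so these copies may not be independent. No 0 h library of this experiment reached 10 counts for copies 323529, 3532163 and 1975301. The filter took these copies in only through libraries given LPS. Ticam1 was low in replicate 3 at 2 h and 4 h and 29.8 to 50.3 CPM in the other 7 libraries so labelled, of which those at 2 h lay above every WT library of that time (25.02 to 40.8 CPM), and its part in these differences was not tested.

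The response in MyD88KO differed from that in WT at 4 h for IAPEz-int copy 2411802 (−2.24), RLTR10C copy 4306309 (3.50, at levels under 1 CPM) and RLTR10-int copy 3851986 (2.04).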

How the results depend on the processing

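The RLTR10D2 and IAP-d-int rises without Suv39h1 kept their direction and call under DESeq2, both other scalings, the cohort block and no filter on low counts, on both backgrounds, but without the copy with most counts both lost the call in Suv39h1KO and IAP-d-int also on the IfnarKO background. Counts for LPS moved with the scaling: the median of all subfamilies at 4 h in WT was 0.50 in the reported scale, −0.15 with gene totals and −0.07 with the TE table's own factors. Of 199 called results on named subfamilies and copies, 138 kept their call in every fit that left out a library, and 0 turned in direction. Cohort numbers paired the libraries of the Suv39h1 experiment (18 pairs, correlations of deviations 0.358 to 0.778); in the LPS experiment (179 pairs, −0.549 to 0.855) and in RAW264.7 (45 pairs, 0.0271 to 0.613) the libraries share only a number. Depth limits the copies: a copy with any count had a median of 5 counts over all libraries. TrifKO stands for the libraries so labelled. Values that crossed a threshold, moved beyond the spread or changed sign follow by setting as totals of both directions; where the setting itself does not show it, the cause was not tested.

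With DESeq2, subfamilies called numbered 3 for LPS 2 h in MyD88KO and 11 for the TrifKO response difference at 4 h. Copies called numbered 1 for the difference between backgrounds, 1 for the MyD88KO response difference at 2 h, 5 for the MyD88KO response difference at 4 h, 10 for the TrifKO response difference at 2 h, 35 for the TrifKO response difference at 4 h, 3 for MyD88KO at 0 h and 1 for TrifKO at 0 h. The log2 fold change changed sign for IAPEz-int at 0.0151 for LPS 4 h in MyD88KO and −0.0033 for Suv39h1KO_IfnarKO. With the TE table's own factors, subfamilies called numbered 5 for LPS 2 h in MyD88KO, 5 for LPS 4 h in TrifKO, 2 for MyD88KO at 0 h, 13 for LPS 2 h in gRNA_1, 0 for gRNA_1 at 0 h and 1 for gRNA_2 at 0 h. Copies called numbered 21 for the TrifKO response difference at 4 h and 10 for MyD88KO at 0 h. A change of sign was seen for IAPLTR1_Mm at −0.18 for LPS 2 h in MyD88KO, −0.18 for LPS 2 h in WT, −0.25 for LPS 4 h in MyD88KO, −0.21 for LPS 4 h in WT and 0.0913 for Suv39h1KO_IfnarKO, IAPEY4_I-int at −0.0719 for LPS 2 h in TrifKO and IAPEz-int at −0.0711 for LPS 2 h in TrifKO, −0.0065 for LPS 2 h in gRNA_Ctrl, −0.33 for LPS 2 h in WT, −0.038 for LPS 4 h in TrifKO and −0.44 for LPS 4 h in WT. It also turned for IAPLTR3-int at −0.0116 for LPS 2 h in TrifKO and −0.0255 for LPS 4 h in TrifKO and RLTR10-int at −0.0974 for LPS 4 h in TrifKO. With gene totals alone, subfamilies called numbered 2 for LPS 2 h in MyD88KO. Restriction genes called numbered 10 for LPS 2 h in TrifKO, 15 for LPS 2 h in gRNA_Ctrl and 14 for LPS 2 h in gRNA_2. Signs turned for IAPLTR1_Mm at −0.19 for LPS 2 h in MyD88KO, −0.0285 for LPS 2 h in TrifKO, −0.25 for LPS 2 h in WT, −0.16 for LPS 4 h in MyD88KO and −0.30 for LPS 4 h in WT, IAPEY4_I-int at −0.18 for LPS 2 h in TrifKO and IAPEz-int at −0.18 for LPS 2 h in TrifKO, −0.39 for LPS 2 h in WT, −0.0748 for LPS 4 h in TrifKO and −0.53 for LPS 4 h in WT. It also turned for IAPLTR3-int at −0.12 for LPS 2 h in TrifKO and −0.0573 for LPS 4 h in TrifKO and RLTR10-int at −0.0412 for LPS 2 h in WT and −0.12 for LPS 4 h in TrifKO. With the cohort number as a replicate block, subfamilies called numbered 9 for Suv39h1KO, 5 for Suv39h1KO_IfnarKO, 3 for LPS 2 h in MyD88KO, 2 for the TrifKO response difference at 2 h, 2 for gRNA_1 at 0 h and 8 for gRNA_2 at 0 h. Copies called numbered 32 for Suv39h1KO, 18 for Suv39h1KO_IfnarKO, 5 for the difference between backgrounds and 22 for the TrifKO response difference at 4 h. The log2 fold change changed sign for IAPEz-int at −0.0001 for Suv39h1KO_IfnarKO. With library set and cohort together as a replicate block, subfamilies called numbered 7 for LPS 2 h in MyD88KO, 5 for LPS 2 h in TrifKO, 6 for LPS 4 h in TrifKO, 1 for the MyD88KO response difference at 4 h, 2 for the TrifKO response difference at 2 h, 13 for the TrifKO response difference at 4 h and 1 for MyD88KO at 0 h. Copies called numbered 64 for LPS 2 h in MyD88KO, 67 for LPS 2 h in TrifKO, 76 for LPS 4 h in TrifKO, 2 for the MyD88KO response difference at 2 h, 5 for the MyD88KO response difference at 4 h, 16 for the TrifKO response difference at 2 h, 49 for the TrifKO response difference at 4 h, 12 for MyD88KO at 0 h and 1 for TrifKO at 0 h. A change of sign was seen for IAPEz-int at −0.0695 for LPS 2 h in WT.

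With the low library set only, subfamilies called numbered 4 for LPS 2 h in WT and 2 for LPS 2 h in MyD88KO. Copies called numbered 65 for LPS 2 h in WT, 157 for LPS 4 h in WT, 0 for the MyD88KO response difference at 4 h and 2 for MyD88KO at 0 h. Signs turned for IAPEz-int at −0.30 for LPS 2 h in WT and 0.0023 for LPS 4 h in MyD88KO, IAPLTR1_Mm at −0.19 for LPS 2 h in WT and RLTR10-int at −0.15 for LPS 2 h in WT. With the high library set only, subfamilies called numbered 4 for LPS 2 h in TrifKO, 6 for LPS 4 h in TrifKO and 13 for the TrifKO response difference at 4 h. Copies called numbered 167 for LPS 4 h in WT, 56 for LPS 2 h in TrifKO, 59 for LPS 4 h in TrifKO, 11 for the TrifKO response difference at 2 h and 25 for the TrifKO response difference at 4 h. With WT libraries of a cohort summed, subfamilies called numbered 6 for LPS 2 h in MyD88KO, 4 for LPS 2 h in TrifKO and 6 for LPS 4 h in TrifKO. Copies called numbered 58 for LPS 2 h in MyD88KO, 59 for LPS 2 h in TrifKO, 57 for LPS 4 h in TrifKO, 14 for the TrifKO response difference at 2 h and 26 for the TrifKO response difference at 4 h. The log2 fold change changed sign for IAPEz-int at 0.0004 for LPS 4 h in MyD88KO. With only the compared groups in the fit, subfamilies called numbered 3 for LPS 2 h in MyD88KO, 6 for LPS 2 h in TrifKO, 7 for LPS 4 h in TrifKO, 0 for the TrifKO response difference at 2 h, 3 for gRNA_1 at 0 h and 8 for gRNA_2 at 0 h. Copies called numbered 5 for Suv39h1KO, 117 for LPS 2 h in WT, 66 for LPS 2 h in TrifKO, 69 for LPS 4 h in TrifKO, 0 for the MyD88KO response difference at 4 h, 1 for the TrifKO response difference at 2 h and 24 for the TrifKO response difference at 4 h. A change of sign was seen for IAPEz-int at 0.0034 for LPS 4 h in MyD88KO and −0.0082 for Suv39h1KO_IfnarKO. With 5 counts in 3 libraries as the filter, copies called numbered 1 for the MyD88KO response difference at 4 h. With no filter on low counts, subfamilies called numbered 1 for LPS 2 h in TrifKO and 1 for LPS 4 h in TrifKO. Without the copy with most counts, subfamilies called numbered 0 for Suv39h1KO, 6 for LPS 4 h in MyD88KO, 0 for LPS 2 h in TrifKO, 0 for LPS 4 h in TrifKO, 0 for the TrifKO response difference at 2 h and 1 for the TrifKO response difference at 4 h. Signs turned for IAPLTR1_Mm at −0.0132 for LPS 2 h in MyD88KO and −0.0071 for LPS 2 h in WT, IAPEY4_I-int at −0.0483 for LPS 2 h in TrifKO and 0.022 for Suv39h1KO_IfnarKO and IAPLTR3-int at 0.14 for LPS 2 h in gRNA_1, 0.26 for LPS 2 h in gRNA_2 and 0.0434 for LPS 2 h in gRNA_Ctrl. It also turned for RLTR10-int at 0.0292 for LPS 2 h in gRNA_2 and −0.0002 for LPS 4 h in TrifKO, RLTR10 at 0.0415 for LPS 2 h in gRNA_Ctrl and IAPEY_LTR at −0.53 for LPS 4 h in MyD88KO and 0.0726 for the TrifKO response difference at 4 h. It also turned for IAPEz-int at 0.0284 for LPS 4 h in MyD88KO and −0.0101 for Suv39h1KO_IfnarKO. Without the copies called in the Suv39h1KO comparisons, a removal that by itself takes away calls, subfamilies called numbered 0 for Suv39h1KO and 0 for Suv39h1KO_IfnarKO. The log2 fold change changed sign for IAPEY4_I-int at 0.0218 for Suv39h1KO_IfnarKO and IAPEz-int at −0.0146 for Suv39h1KO_IfnarKO. With gene totals and TMM factors, the log2 ratio of the summed IAP level was 0.96 for LPS 4 h in WT, 0.55 for LPS 4 h in MyD88KO, 0.12 for LPS 2 h in TrifKO, 0.24 for LPS 4 h in TrifKO and 0.33 for LPS 2 h in gRNA_Ctrl. The log2 ratio of the summed RLTR10 level was 1.04 for LPS 4 h in WT, 0.0238 for LPS 2 h in MyD88KO, 0.67 for LPS 4 h in MyD88KO, −0.0975 for LPS 2 h in TrifKO and −0.14 for LPS 2 h in gRNA_Ctrl. As a share of TE counts, the log2 ratio of the summed IAP level was 0.11 for Suv39h1KO_IfnarKO, −0.0203 for LPS 4 h in MyD88KO, −0.099 for LPS 4 h in TrifKO and −0.11 for LPS 2 h in gRNA_Ctrl. The log2 ratio of the summed RLTR10 level was 0.11 for LPS 4 h in MyD88KO and −0.59 for LPS 2 h in gRNA_Ctrl.

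Leaving out each library in turn gave 3 to 11 in place of 12 copies for Suv39h1KO (lowest without WT replicate 2), 4 to 5 in place of 7 copies for Suv39h1KO_IfnarKO (lowest without IfnarKO replicate 2), 0 to 2 in place of 1 subfamily for LPS 2 h in MyD88KO (lowest without MyD88KO 2 h replicate 1 and MyD88KO 0 h replicate 2, highest without MyD88KO 2 h replicate 2 and MyD88KO 0 h replicate 1) and 1 in each fit in place of 2 subfamilies for LPS 2 h in TrifKO. It gave 1 to 2 in place of 2 subfamilies for LPS 4 h in TrifKO, 0 to 1 in place of 1 subfamily for the TrifKO response difference at 2 h, 6 to 12 in place of 7 subfamilies for the TrifKO response difference at 4 h (highest without WT 4 h replicate 2) and 15 to 24 in place of 29 copies for LPS 2 h in MyD88KO (lowest without MyD88KO 2 h replicate 1). It gave 58 to 85 in place of 93 copies for LPS 4 h in MyD88KO (lowest without MyD88KO 4 h replicate 3), 15 to 26 in place of 37 copies for LPS 2 h in TrifKO (lowest without TrifKO 0 h replicate 2), 16 to 35 in place of 36 copies for LPS 4 h in TrifKO (lowest without TrifKO 0 h replicate 3) and 0 to 1 in place of 0 copies for the MyD88KO response difference at 2 h (highest without WT 0 h replicate 2 and WT 2 h replicate 1). It gave 0 to 4 in place of 3 copies for the MyD88KO response difference at 4 h, 1 to 11 in place of 5 copies for the TrifKO response difference at 2 h (lowest without TrifKO 2 h replicate 3, highest without WT 2 h replicate 1), 7 to 22 in place of 13 copies for the TrifKO response difference at 4 h (lowest without TrifKO 4 h replicate 3, highest without WT 4 h replicate 2) and 2 to 7 in place of 5 copies for MyD88KO at 0 h (lowest without MyD88KO 0 h replicate 1). It gave 0 to 1 in place of 1 subfamily for gRNA_1 at 0 h (lowest without gRNA_1 0 h replicate 1 and gRNA_Ctrl 0 h replicate 3), 1 to 5 in place of 5 subfamilies for gRNA_2 at 0 h (lowest without gRNA_2 0 h replicate 1), 0 to 2 in place of 0 copies for the gRNA_2 response difference at 2 h (highest without gRNA_2 0 h replicate 2) and 6 to 9 in place of 13 copies for gRNA_1 at 0 h (lowest without gRNA_1 0 h replicate 1 and gRNA_Ctrl 0 h replicate 1). It gave 9 to 13 in place of 18 copies for gRNA_2 at 0 h (lowest without gRNA_2 0 h replicate 1). The sign turned in some of these fits for IAPLTR1_Mm for LPS 2 h in MyD88KO (−0.12 to 0.16), IAPEY4_I-int for LPS 2 h in TrifKO (−0.0338 to 0.24), IAPEz-int for LPS 2 h in TrifKO (−0.0455 to 0.13), IAPEz-int for LPS 2 h in WT (−0.087 to 0.13) and IAPEz-int for LPS 4 h in MyD88KO (−0.11 to 0.0559). The same was found for RLTR10-int for LPS 4 h in TrifKO (−0.0308 to 0.27), IAPLTR1_Mm for Suv39h1KO (−0.15 to 0.0059), RLTR10-int for Suv39h1KO (−0.31 to 0.0831), IAPEz-int for Suv39h1KO_IfnarKO (−0.0732 to 0.0418) and IAPLTR1_Mm for Suv39h1KO_IfnarKO (−0.18 to 0.0461).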

Other observations

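Some copies that moved without Suv39h1 also moved with LPS in the separate LPS experiment. Of the 6 copies higher in Suv39h1KO, 3 (50%) were called higher at 4 h of LPS in WT BMDC, IAP-d-int 427365 (log2 change 1.02 ± 0.27 SE, adjusted p = 0.00272 in edgeR's quasi-likelihood test), IAPLTR2_Mm 3005983 and RLTR10D2 427367; they are 1.96% of the copies higher with LPS, and 28.4% of all copies tested were called higher. Of the 6 copies lower in Suv39h1KO, 3 (50%), all in the run 2585585 to 2585592, were called lower at 4 h, 2.8% of the copies lower with LPS, and 14% of all copies tested were called lower. IAPLTR2_Mm copy 3005983 was 0, 0.028 and 0.148 CPM at 0 h in WT (lowest, median and highest), 0.514, 1.48 and 4.93 CPM after 2 h and 0.785, 1.48 and 4.13 CPM after 4 h. Neither overlap was tested, and the copies of the run are not independent.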
